A study of Mus musculus with 2 samples.

Results

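The genes described here encode the translation initiation and elongation factors of the mouse, together with kinases and methyltransferases named after them. They were taken as every protein-coding gene whose symbol begins with Eif or Eef followed by a number, leaving out Eef1a1, Eef1a2 and Eif2s3y. The pattern matched 79 symbols, of which 68 were protein-coding, and removing the 3 named genes left 65 genes of the 55536 annotated genes in the tables. The tissue was the gastrocnemius, a large muscle of the calf, from 2 male B6CASTF1/J mice aged 25 days, offspring of a cross between C57BL/6J and CAST/EiJ. Each animal gave 1 total RNA-seq library, made from 300 ng of RNA with ERCC spike-ins (synthetic RNAs of known amount) for stranded libraries with reduced ribosomal RNA, per the labels. The tissue samples are numbered as different males, although both carry the same donor entry, so they are treated as separate animals of 1 group, animal 1 and animal 2. The labels give no treatment, and no conditions were compared.

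Translation begins when eIF2 brings the initiator tRNA to the small ribosomal subunit, which eIF3, eIF1 and eIF1A prepare to scan an mRNA. The cap-binding complex eIF4F (the cap-binding protein eIF4E, the scaffold eIF4G and the RNA helicase eIF4A) recruits that subunit to the mRNA, and eIF5 and eIF5B complete start codon recognition and subunit joining. During elongation, eEF1A delivers each aminoacyl-tRNA, eEF1B recharges eEF1A with GTP, eEF2 moves the ribosome along and eIF5A helps it past difficult sequences. In skeletal muscle the rate of protein synthesis is controlled in part through eIF4E-binding proteins, phosphorylation of eIF2 and phosphorylation of eEF2.

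Expected counts over annotated genes summed to 34907934 in animal 1 and 37214088 in animal 2, and 3 counts correspond to 0.0859 and 0.0806 CPM (counts scaled to a fixed library total). The muscle fibre markers Acta1, Ckm, Myh4, Mylpf and Tnnt3 summed to 80952 TPM in animal 1 and 82034 TPM in animal 2, so the tissue label and the markers go together. TPM is the share of all transcripts, corrected for length and scaled to a fixed total. Slow fibre markers (Myh7, Myl2, Tnni1) summed to 550 TPM in animal 1 and 1050 TPM in animal 2. Fibroblast markers (Col1a1, Col3a1, Pdgfra, Dcn) summed to 1227 TPM in animal 1 and 824 TPM in animal 2. The gap lay in Col1a1, at 864 and 469 TPM, since Col3a1 had 229 TPM in both animals and Pdgfra and Dcn differed little. Blood markers (Hbb-bs, Hba-a1) summed to 395 TPM in animal 1 and 373 TPM in animal 2, and markers of endothelium, macrophages, adipocytes and satellite cells to 36.5 TPM or less in each library. These are whole-tissue libraries, in which fewer cells of a type and less RNA per cell cannot be told apart.

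Of the 65 genes, 62 were detected, meaning a TPM of 1 or more in both animals (95.4%, beside 45.1% of nuclear protein-coding genes). Of all nuclear protein-coding TPM, the genes held 0.717% in animal 1 and 0.747% in animal 2 (mean 0.732% ± 0.0211, SD, n = 2). The median over all 65 genes was 21 TPM in animal 1 and 21.2 TPM in animal 2. Over the detected genes alone it was 23.8 and 23.2 TPM, beside 6.54 and 7.05 TPM over all 9937 detected nuclear protein-coding genes. Levels were far from even: 8 genes were at 100 TPM or more in both animals, 37 lay between 10 and 100 TPM, 18 lay under 10 TPM and 2 fell on both sides of 10 TPM. The 4 most abundant genes, Eif1, Eef2, Eif4g2 and Eef1g, held 37.9% of the summed TPM of the 65 genes in animal 1 and 38.7% in animal 2.

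The 3 genes not detected were Eif5a2, Eef1akmt3 and Eif4e1b. Eif5a2, a close relative of Eif5a, had 0.18 TPM in animal 1 and 0.31 TPM in animal 2, from 26 and 46 expected counts. Eef1akmt3, which encodes a lysine methyltransferase of eEF1A, had 0.05 and 0.06 TPM. Eif4e1b, a relative of Eif4e known mainly from oocytes, had 0 expected counts in both libraries, which allows up to 3 counts in each. These values lie under the detection threshold and do not show that the genes were silent.

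**Figure D1:**
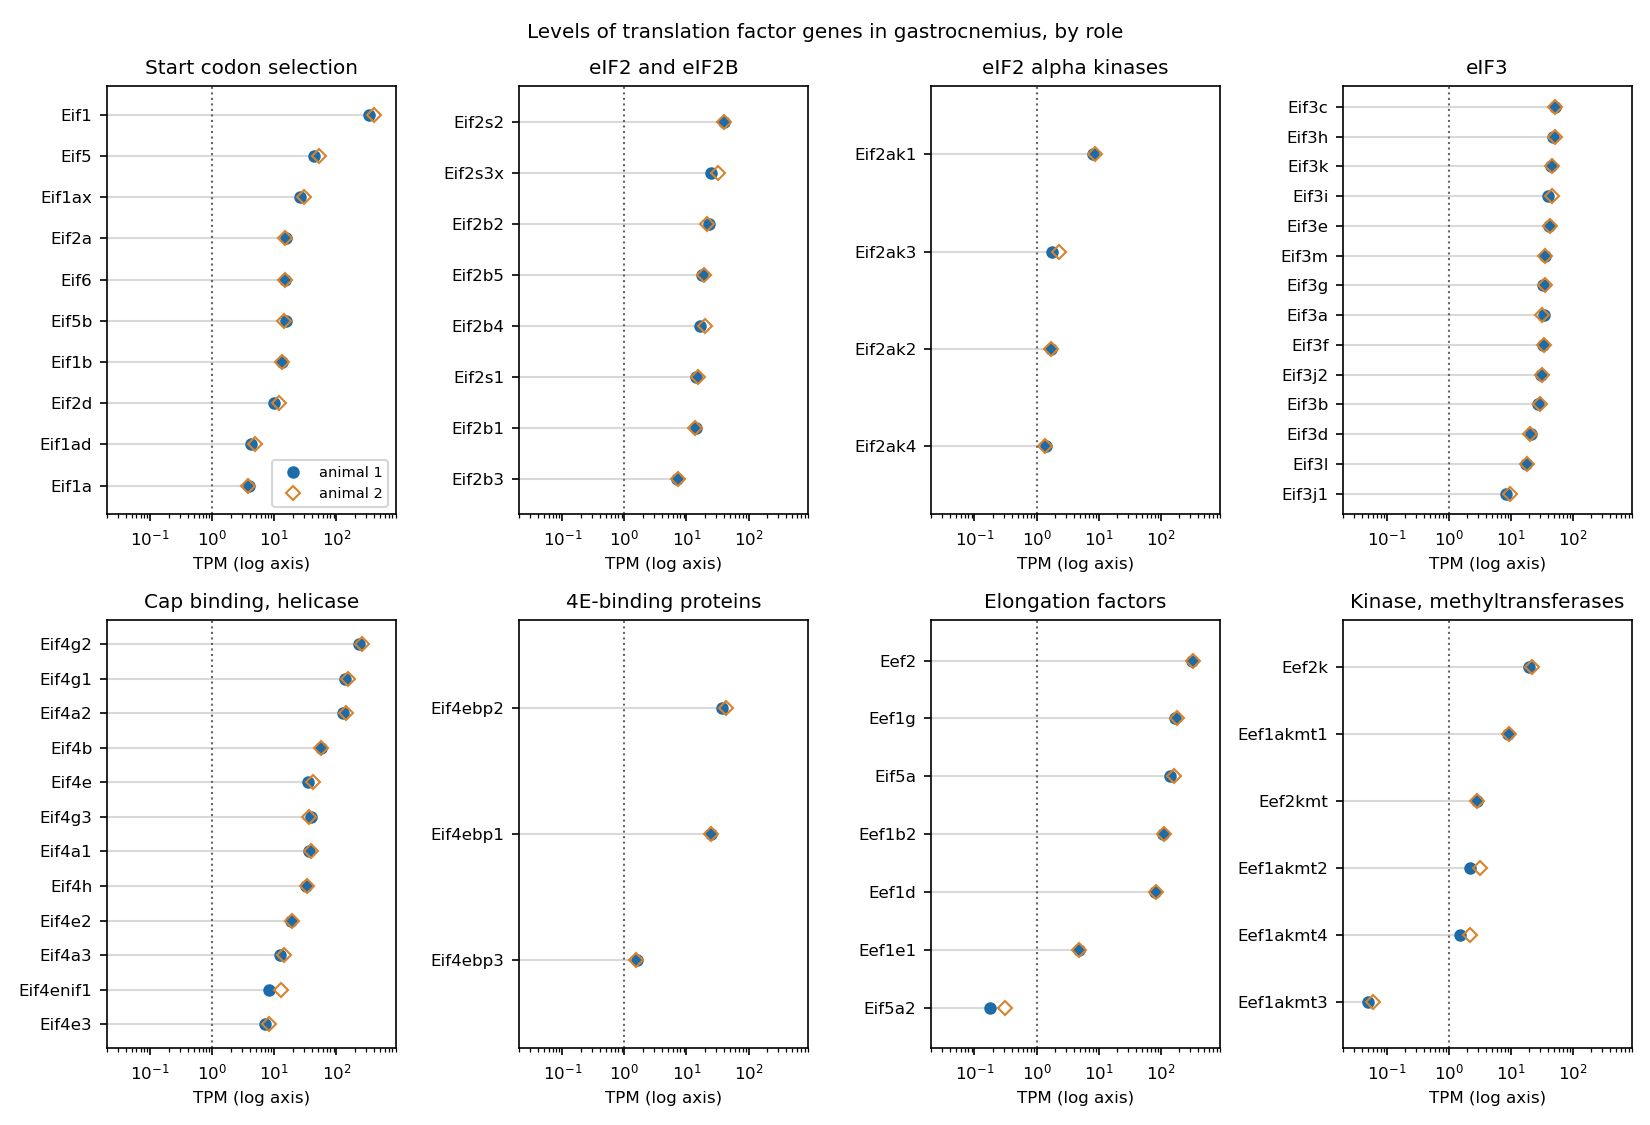
TPM of each factor gene on a log axis in animal 1 (filled circles) and animal 2 (open diamonds), grouped by role, with the detection threshold of 1 TPM dotted; grey lines only guide the eye, and Eif4e1b, at 0 in both, is left out. The animals nearly coincide for most genes, whereas genes within a role differ widely, as in the elongation panel from Eif5a2 (0.18 and 0.31 TPM) to Eef2 (322 and 337 TPM).

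The elongation factors were the most abundant role, with a median of 110 TPM in animal 1 and 113 TPM in animal 2 over 7 genes. Eef2 (ENSMUSG00000034994.10, chr10:81176631-81182498 in mm10, plus strand), whose product translocates the ribosome, had 322 TPM in animal 1 and 337 TPM in animal 2. It ranked 120 among nuclear protein-coding genes by mean TPM. The 3 subunits of the exchange factor eEF1B stood in the order Eef1g, Eef1b2, Eef1d in both animals. Eef1g, the structural gamma subunit (ENSMUSG00000071644.10), had 172 TPM in animal 1 and 181 TPM in animal 2. Eef1b2, a catalytic subunit, had 110 and 113 TPM, and Eef1d, the other catalytic subunit, had 79.8 and 83.8 TPM. The highest subunit was thus 2.15-fold above the lowest in animal 1 and 2.16-fold in animal 2, and no values of neighbouring subunits overlapped.

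Eif5a, which carries the amino acid hypusine and assists elongation, had 143 TPM in animal 1 and 165 TPM in animal 2. Its relative Eif5a2 was 8.99 lower in animal 1 and 8.65 lower in animal 2 on the log2(TPM + 0.1) scale. Eef1e1, whose product is a scaffold of the multi-tRNA synthetase complex, was the lowest detected gene of this role, at 4.77 TPM in both animals. For scale, Eef1a2, the muscle and neuron form of the tRNA carrier eEF1A, had 739 TPM in animal 1 and 843 TPM in animal 2, and Eef1a1 had 208 and 191 TPM.

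Regulators of elongation were much lower. Eef2k, the kinase that inhibits eEF2, had 20 TPM in animal 1 and 22.0 TPM in animal 2. Eef1akmt1 had 8.88 and 9.47 TPM, and the methyltransferases Eef2kmt, Eef1akmt2 and Eef1akmt4 lay between 1.54 and 3.25 TPM in all libraries. Eef2kmt methylates eEF2, and the Eef1akmt genes encode lysine methyltransferases of eEF1A. The ranges of Eef2kmt and Eef1akmt2 overlapped, so their order was not resolved.

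Among the factors for start codon selection and scanning, Eif1 stood apart. Eif1 (ENSMUSG00000035530.13, chr11:100319885-100322096, plus strand), which keeps scanning accurate by opposing poor start codons, had 332 TPM in animal 1 and 397 TPM in animal 2, the highest mean of the 65 genes, although its range overlapped that of Eef2. Eif1b, whose coding sequence is 81.1% identical to that of Eif1, had 13.2 and 13.4 TPM, a mean log2 ratio of 4.76 in favour of Eif1. Eif5, the GTPase activator of eIF2, was next at 43.1 TPM in animal 1 and 52.0 TPM in animal 2. Eif1ax, the X-linked gene for eIF1A, had 25.7 and 29.8 TPM, and the related Eif1a had 3.96 and 3.71 TPM. Several of the remaining genes lay close together. Eif2a (an alternative initiator tRNA factor), Eif6 (which holds the large subunit apart) and Eif5b (the subunit-joining GTPase) all lay between 14.3 and 15.7 TPM, with overlapping ranges. Eif2d, another alternative tRNA delivery factor, had 9.85 TPM in animal 1 and 11.7 TPM in animal 2, and Eif1ad had 4.26 and 4.96 TPM.

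The 3 subunits of eIF2 were unequal. Eif2s2, the beta subunit, had 40.1 TPM in animal 1 and 39.9 TPM in animal 2. Eif2s3x, the X-linked gamma subunit, had 24.7 and 31.9 TPM, and its Y-linked partner Eif2s3y had 17.1 and 14.5 TPM. Eif2s1, the alpha subunit phosphorylated by stress kinases, had 14.5 TPM in animal 1 and 15.6 TPM in animal 2. With Eif2s3x alone counted for the gamma subunit, the highest subunit was 2.77-fold above the lowest in animal 1 and 2.56-fold in animal 2. The TPM of Eif2s3y was not added, so these folds do not cover the whole gamma subunit. The spread was wider in the second quantification, at 5.36-fold and 5.0-fold, where Eif2s1 had 10.9 TPM in animal 1 and 11.6 TPM in animal 2.

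The 5 subunits of eIF2B, the exchange factor that recharges eIF2, ranged from 7.17 TPM (Eif2b3) to 23.1 TPM (Eif2b2) in animal 1 and from 7.20 to 21.2 TPM in animal 2. Eif2b5, the catalytic subunit, had 18.1 TPM in animal 1 and 19.5 TPM in animal 2, and Eif2b4 had 16.4 and 20.1 TPM. These ranges overlapped. Eif2b1 had 14.4 and 13.8 TPM. The order depended on the quantification, since in the second Eif2b1 was the highest subunit, at 35.8 TPM in animal 1 and 40.7 TPM in animal 2, and Eif2b2 had 24.9 and 20.1 TPM.

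All 4 eIF2 alpha kinases were detected at low levels. Eif2ak1, the heme-sensitive kinase HRI, was the highest, at 8.06 TPM in animal 1 and 8.91 TPM in animal 2. Eif2ak3, the endoplasmic reticulum kinase PERK, had 1.79 and 2.30 TPM. Eif2ak2, the kinase PKR that senses double-stranded RNA, had 1.68 and 1.72 TPM, and Eif2ak4, the amino acid sensor GCN2, had 1.40 and 1.35 TPM. Eif2ak1 lay above each of the other kinases in both animals, with a mean 6.17-fold above that of Eif2ak4.

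The 14 eIF3 genes spanned 6.21-fold in animal 1 and 5.25-fold in animal 2. Leaving out Eif3j1 and Eif3j2, which encode the loosely bound subunit j, the other 12 subunits lay between 17.4 and 52.0 TPM in animal 1 and between 18.1 and 51.0 TPM in animal 2. That is a spread of 2.98-fold and 2.82-fold for the parts of a single complex. Eif3c, a core subunit, had 52.0 TPM in animal 1 and 50.8 TPM in animal 2, and Eif3h had 48.0 and 51.0 TPM, so the top 2 were not separated. Eif3l was the lowest of the 12, at 17.4 and 18.1 TPM. Eif3a, the largest scaffold subunit, had 34.4 TPM in animal 1 and 32.0 TPM in animal 2. The subunits b, d, g and i, which lie outside the core of 8 subunits, ranged from 21 to 40.4 TPM in animal 1 and from 20.7 to 45.5 TPM in animal 2.

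The subunit j genes cannot be separated with confidence. Eif3j2, which has 1 exon, was listed at 31.1 TPM in animal 1 and 31.5 TPM in animal 2, and Eif3j1, which has 8 exons, at 8.38 and 9.71 TPM. Their coding sequences are 99.7% identical over 783 aligned bases, so reads can be divided between them in different ways, and the 3.46-fold higher mean of Eif3j2 is uncertain.

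Among the cap-binding and helicase factors the scaffold gene Eif4g2 was the highest. Eif4g2 (ENSMUSG00000005610.17, chr7:111067750-111083030, minus strand), which encodes a scaffold lacking the eIF4E-binding part, had 230 TPM in animal 1 and 258 TPM in animal 2. Eif4g1, the main eIF4F scaffold, had 137 and 153 TPM, and its relative Eif4g3 had 38.5 and 36.4 TPM. The range of Eif4g1 overlapped that of the helicase gene Eif4a2. The log2 ratio of Eif4g1 over Eif4g3 was 1.83 in animal 1 and 2.06 in animal 2. The order Eif4g2, Eif4g1, Eif4g3 held in both animals and in both quantifications. Eif4e, the cap-binding protein itself, had 34.4 TPM in animal 1 and 42.6 TPM in animal 2, below Eif4g2 and Eif4g1 and in a range that overlapped that of Eif4g3. Eif4e2, a cap-binding repressor also called 4EHP, had 18.3 and 19.4 TPM, and Eif4e3, another cap-binding relative, had 7.14 and 8.27 TPM. Eif4enif1, which carries eIF4E into the nucleus and into mRNA granules, had 8.29 TPM in animal 1 and 12.8 TPM in animal 2.

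Of the helicases, Eif4a2 was listed at 128 TPM in animal 1 and 142 TPM in animal 2, and Eif4a1 at 35.8 and 39.0 TPM. The log2 ratio of Eif4a2 over Eif4a1 was 1.84 in animal 1 and 1.86 in animal 2, but only 1.00 and 0.82 in the second quantification. Eif4a2 was above Eif4a1 in each of these values. The coding sequences compared were 78.4% identical, and a processed pseudogene, Eif4a-ps4, was listed at 7.62 TPM in animal 1 and 8.01 TPM in animal 2. Eif4a3, the helicase of the exon junction complex, had 12.5 and 14.4 TPM. Eif4b and Eif4h both stimulate eIF4A. Eif4b had 57.0 TPM in animal 1 and 56.5 TPM in animal 2, and Eif4h had 32.8 and 33.5 TPM.

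The eIF4E-binding proteins repress cap-dependent initiation until the kinase mTORC1 phosphorylates them. Eif4ebp2 was listed at 36.9 TPM in animal 1 and 43.9 TPM in animal 2, Eif4ebp1 at 24.6 and 24.4 TPM, and Eif4ebp3 at 1.57 and 1.56 TPM. In the gene tables Eif4ebp1 was below Eif4ebp2 by a log2 ratio of -0.58 in animal 1 and -0.85 in animal 2. In the second quantification the ratio was 0.04 in animal 1 and -0.19 in animal 2, so the order of these genes was not resolved. Both exceeded Eif4ebp3 in both quantifications.

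**Figure D2:**
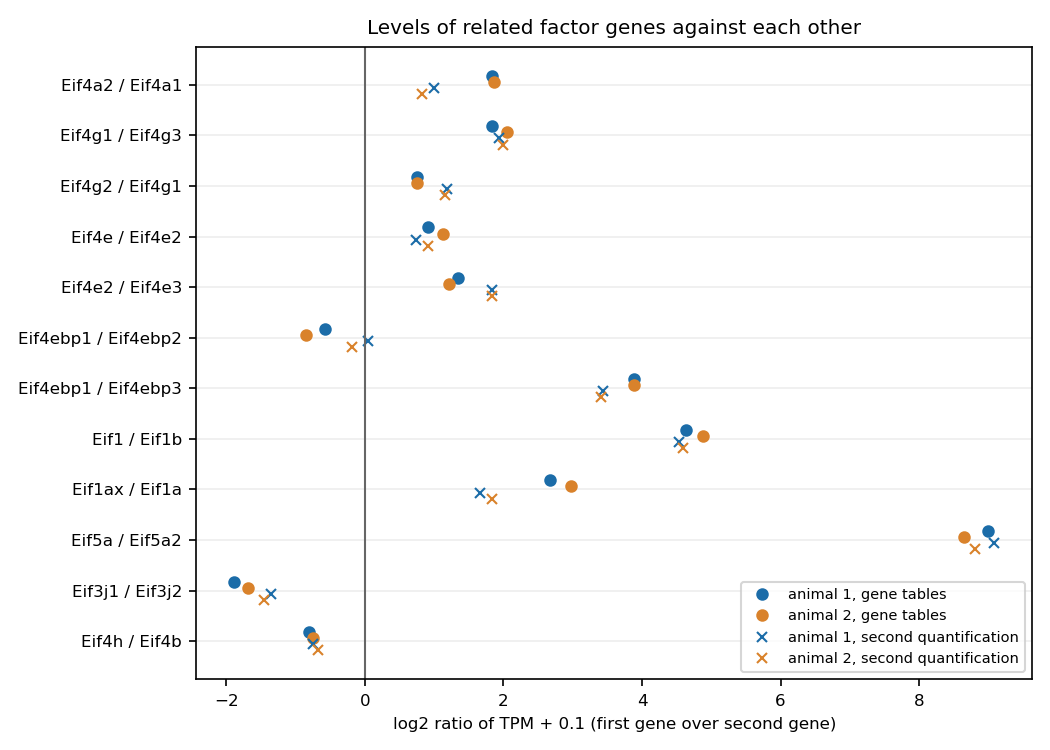
Log2 ratio of TPM + 0.1 for 12 pairs of related genes, first gene over second, in animal 1 (blue) and animal 2 (orange), from the gene tables (circles) and the second quantification (crosses). In 9 of the 12 pairs the first gene is the higher in both animals, and Eif4ebp1 over Eif4ebp2 is the pair whose values fall on both sides of 0.

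In all, the first gene of the pair was higher in both animals in 9 of 12 pairs, whether the gene tables or the second quantification was used. Which gene stands first was chosen by hand and some genes recur in several pairs, so this count only describes that listing. Over the 62 detected genes the quantifications ranked levels alike (Spearman rho 0.972, a description across genes that share libraries). After bringing both to a common scale, 3 genes differed by more than 2-fold in both animals (4.84%, beside 1.26% of detected nuclear protein-coding genes). Eif2s1 was at 0.485 of its gene-table level in animal 1 and 0.462 in animal 2. Eif1ax was at 0.440 and 0.431, and Eef1e1 at 0.340 and 0.433. All 3 were lower in the second quantification.

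These 3 genes also differed in which transcripts carried them. The 65 genes have 415 annotated transcripts, of which 222 are coding, and the main transcript is the one with the largest share of a gene's TPM. In the gene tables, 52.1% of Eif2s1 in animal 1 and 53.2% in animal 2 was assigned to Eif2s1-203, a processed transcript of 433 bases that covers 40.4% of the coding part. The second quantification gave it 0.230% and 0%. For Eif1ax, 46.9% in animal 1 and 48.0% in animal 2 went to Eif1ax-202, a retained-intron transcript of 416 bases, against 0% and 1.67% in the second quantification. For Eef1e1, the retained-intron transcript Eef1e1-203 took 60.0% and 31.1% in the gene tables, and 8.09% and 6.05% in the second. In each of these genes a short transcript without a coding annotation took a much larger share in the gene tables.

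The main transcript was the same in both animals and both quantifications for 43 of the 62 detected genes. Between animals it was the same for 57 genes in the gene tables and for 54 in the second quantification. Eif4ebp1 was the single detected gene whose main transcript was not of coding type in all 4 listings. Eif4ebp1-202 (ENSMUST00000210959.1, chr8:27264414-27275498, plus strand), annotated as a processed transcript, took 68.0% of the TPM of Eif4ebp1 in animal 1 and 74.1% in animal 2, and 84.0% and 85.9% in the second quantification. It has 5 exons and 798 bases and holds 59.5% of the coding part of the coding transcript Eif4ebp1-201, which has 1997 bases. Eif4ebp1-201 alone stood at 7.87 TPM in animal 1 and 6.30 TPM in animal 2, so most of the listed level of this gene did not come from its annotated coding transcript.

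Other abundant genes had a large non-coding share that depended on the quantification. For Eif1, 56.8% of TPM in animal 1 and 62.4% in animal 2 was on transcripts not of coding type, mainly the 383-base Eif1-202, and the second quantification gave 47.2% and 48.5%. The coding transcript Eif1-201 alone stood at 141 TPM in animal 1 and 148 TPM in animal 2. Eef2-201, the main transcript of Eef2, stood at 317 and 334 TPM. The top rank of Eif1 therefore holds for the sum of its transcripts and not for Eif1-201. For Eif4a2, 56.0% in animal 1 and 55.9% in animal 2 was not of coding type, and 40.6% and 37.6% in the second quantification. The transcripts behind that share differed: Eif4a2-210, annotated as a target of nonsense-mediated decay, took 40.9% and 41.5% in the gene tables but 9.02% and 6.06% in the second quantification, where the retained-intron transcript Eif4a2-206 took 23.9% and 18%. Eif4a1 went the other way, with 22.7% and 18% of TPM not of coding type in the gene tables and 87.9% and 75.2% in the second. Eif5b had 54.0% and 45.0%, and 77.8% and 77.5% in the second. Summed over the factor genes, transcripts of coding type held 81.9% of TPM in animal 1 and 80.6% in animal 2, beside 87.8% and 87.2% over all nuclear protein-coding genes. That sum weighs genes by TPM, and Eif1, at 332 and 397 TPM, supplied its largest non-coding part. The lower share is therefore not a trait of each factor gene. Nonsense-mediated decay transcripts held 4.23% and 4.43% of the factor genes' TPM, beside 1.58% and 1.64% over all. In the gene tables a large part of this was Eif4a2-210, at 52.4 TPM in animal 1 and 58.8 TPM in animal 2. In the second quantification the share was 3.94% and 4.43%, beside 1.77% over all in both animals, but Eif4a2-210 stood at 18.3 and 12.8 TPM. The decay transcripts Eef1b2-205, at 52.9 and 22.8 TPM, and Eef1b2-201, at 25.2 and 50.7 TPM, were larger there.

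**Figure D3:**
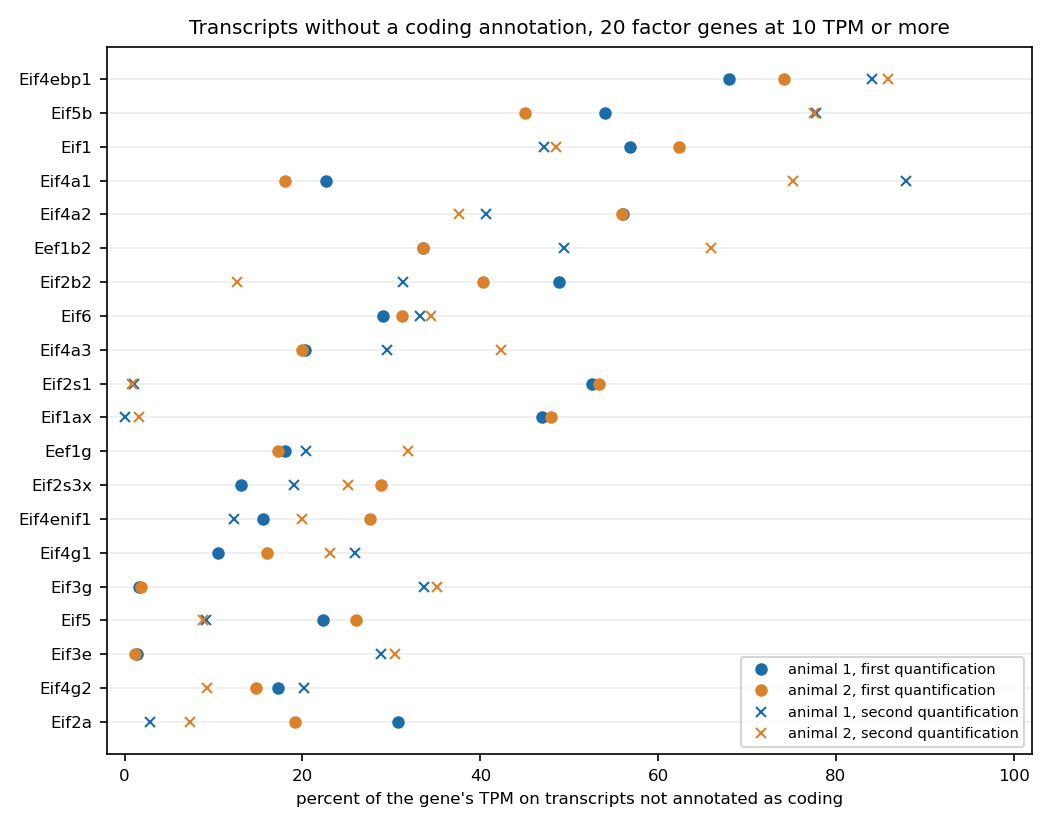
Percent of each gene's TPM on transcripts not annotated as coding, in animal 1 (blue) and animal 2 (orange), from the gene tables (first quantification, circles) and the second quantification (crosses), for the 20 genes with the largest mean share among those at 10 TPM or more. Eif4ebp1 is at 68.0% or more in all 4 listings, whereas circles and crosses lie far apart for Eif4a1, Eif2s1 and Eif1ax.

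The factor genes also contain small nucleolar RNA genes, 18 of them within 9 factor genes on the same strand, of which 6 were at 1 TPM or more in both animals. The most abundant were Gm22988 within Eif4a1, at 643 TPM in animal 1 and 300 TPM in animal 2, and Gm26447 within Eif4a2, at 434 and 322 TPM. The second quantification listed every one of the 18 at 0 TPM in both animals. Their part in the transcript shares of Eif4a1 and Eif4a2 was not tested. Protein-coding genes on the opposite strand overlap 15 of the 65 genes. Whether strand was used in counting is not given in the sources used here, so reads of such partners may not be told apart. On the same strand, protein-coding genes overlap 5 of the 65 genes, and there strand cannot separate reads from shared bases. For Eif4ebp3 the partner is AC115631.1, listed at 2.12 TPM in animal 1 and 2.34 TPM in animal 2, so the low level of Eif4ebp3 is uncertain.

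The start codon surroundings of the main coding transcripts are shown because several factors select start codons, and Eif1 is known to oppose initiation at its own poorly placed start codon. A start codon is favoured when a purine stands 3 bases before it and a G follows it. Each line below gives 12 bases before the start codon, the codon and 3 bases after it, 5′ to 3′, read from the GENCODE M21 transcripts, with capitals marking the base 3 before the codon, the codon and the base after it. The first coding bases are at chr11:100320130 (plus strand) for Eif1, chr9:120492811 (plus) for Eif1b, chr16:20674288 (plus) for Eif4g1, chr7:111081547 (minus) for Eif4g2, chr10:81176727 (plus) for Eef2, chr19:8967214 (plus) for Eef1g and chr11:69919315 (minus) for Eif5a, in mm10.
Eif1: gaatcgtatCgtATGTcc
Eif1b: cactagtgtCgcATGTcc
Eif4g1: caagcgacaCaaATGAac
Eif4g2: caagccgccAaaGTGGag
Eef2: ccatccgccAccATGGtg
Eef1g: tgcggaatcAccATGGcg
Eif5a: aagcctcttAaaATGGca

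Of the 61 detected genes that could be scored, 60 start at ATG. Eif4g2 is the exception, with an annotated GTG start that has both favourable bases, and 15 of 9934 detected protein-coding genes have a start other than ATG. Both bases were favourable in 28 genes (46.7%, beside 45.8% of all genes), as in Eef2, Eef1g and Eif5a. The purine alone was present in 23 genes (38.3%, beside 40.9%), and the G alone in 3 genes (5.0%, beside 7.01%). Neither was present in 6 genes (10%, beside 6.38%), namely Eif1, Eif1b, Eif4g1, Eif3b, Eif2b4 and Eef1akmt1. Eif1 and its relative Eif1b thus share a start context with neither favourable base, and the shares over the group lie near those of all genes.

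Promoters are shown for their E-box, CACGTG, which Myc and related factors bind in many cells, and for a run of pyrimidines at the transcript start, a feature by which mTORC1 controls the translation of elongation factor and ribosomal protein mRNAs. Promoter windows, from 250 bases before to 50 bases after a start, were found for 49 of the 65 genes in RefSeq (GRCm38.p6). CACGTG, which reads the same on both strands, was present in the windows of 13 genes (26.5%, beside 9.18% of 16522 protein-coding genes). Counted by window, it was in 15 of 64 (23.4%), beside 7.15% of all 32851 windows. Neither background, nor those of the motifs below, was limited to detected genes. Detected genes are 95.4% of the factor genes and 45.1% of nuclear protein-coding genes. The 13 genes were Eef2, Eef2k, Eef1akmt4, Eif1b, Eif3a, Eif3f, Eif3k, Eif4a1, Eif4e, Eif4g1, Eif4h, Eif5a and Eif5a2, from the most abundant factors to a gene not detected. The motif of each of 4 genes is given in capitals within 30 bases, for Eef2 at chr10:81176576-81176605 (plus strand), Eif4e at chr3:138527192-138527221 (plus), Eif4g1 at chr16:20672661-20672690 (plus) and Eif3f at chr7:108934335-108934364 (plus).
Eef2: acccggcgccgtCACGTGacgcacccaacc
Eif4e: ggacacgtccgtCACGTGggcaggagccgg
Eif4g1: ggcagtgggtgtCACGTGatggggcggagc
Eif3f: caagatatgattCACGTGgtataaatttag

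A run of C followed by 4 or more pyrimidines, read on the transcribed strand and beginning within 5 bases of the annotated start, was present for 12 genes (24.5%, beside 21.8% of protein-coding genes). A C at the start itself followed by 4 or more pyrimidines was present for 2 genes (4.08%, beside 2.71%), Eif3f and Eif2s3x. Capitals mark the whole run, which begins before the annotated start, at an offset of -4 bases for Eif3f and -1 for Eif2s3x. The start itself is a C within each run. The windows shown are at chr7:108934400-108934429 (plus strand) for Eif3f and chrX:94212637-94212666 (minus strand) for Eif2s3x.
Eif3f: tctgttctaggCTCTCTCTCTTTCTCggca
Eif2s3x: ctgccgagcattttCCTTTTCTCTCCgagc

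The motif TGATGNAA, searched on both strands as the element bound by ATF4 and its partners, was present for 2 genes (4.08%, beside 3.99%). These matches describe the letters in the windows, and a missing match says nothing about a factor or about the true transcript start.

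The libraries of animal 1 and animal 2 were compared gene by gene to see how far the levels above varied. The ratio is that of scaled expected counts, animal 1 over animal 2, and the exact conditional binomial test carries sampling error alone, so it compares these libraries and not conditions. Of 63 factor genes whose counts summed to at least 20, 0 were called at an adjusted p under 0.05 and over 2-fold, beside 262 of 14754 genes tested (1.78%). At an unadjusted p under 0.05 there were 18 factor genes, beside 25.1% of all genes, and at over 1.5-fold with the adjusted threshold again 0, beside 3.75%. Log2 ratios of the 63 genes ran from -0.63 (Eif5a2) to 0.22, with a median of 0.002, beside -0.015 over all genes tested. Among genes whose counts summed to at least 1000, the median absolute log2 ratio was 0.059 over 47 factor genes and 0.087 over 4768 nuclear protein-coding genes. The deposited TPM ran lower in animal 1, with a median log2 TPM ratio of -0.088 over these factor genes and -0.126 over these protein-coding genes. Some TPM differences were larger than that shift and were not seen in the scaled counts, as for Eif4e and Eif2s3x, whose log2 ratios of scaled counts were -0.06 and -0.04. Why TPM and scaled counts differed for these genes was not tested.

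By the adjusted p alone, 9 of the 63 genes passed, beside 15.1% of all genes, and each difference was small. Higher in animal 1 were 6 genes (beside 6.99% of all genes in that direction). Eif3a had 4850 expected counts in animal 1 and 4742 in animal 2, a log2 ratio of 0.22 after scaling (adjusted exact p = 6.43e-12). Eif4ebp1 had 768 and 751 expected counts, also 0.22 (adjusted exact p = 0.0265). The other 4 were Eif5b at 0.18, Eif4g3 at 0.17, Eif2s2 at 0.15 and Eif4b at 0.11. Higher in animal 2 were 3 genes (beside 8.10%). Eif4g2 had 19625 expected counts in animal 1 and 23985 in animal 2, a log2 ratio of -0.10 (adjusted exact p = 2.51e-12). Eif4ebp2 had 5206 and 6525, a log2 ratio of -0.14 (adjusted exact p = 3.40e-06). Eif4enif1 had 637 and 855, a log2 ratio of -0.24 (adjusted exact p = 0.0139), the largest of the 9 in size.

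The count of 9 depends on the scaling and the quantification. With total expected counts in place of TMM scaling, 21 factor genes passed the adjusted p alone, 5 of them among the 9. Of the 21, 2 were higher in animal 1 and 19 in animal 2, and the median over the factor genes moved to -0.091. That scaling moved the median of all genes to -0.108, so the factor genes moved with all genes. At an unadjusted p under 0.05 it gave 27 factor genes, beside 33.7% of all genes. In the second quantification 19 factor genes had an unadjusted p under 0.05, beside 24.4% of all genes. By the adjusted p 11 factor genes passed there, 7 of them among the 9. The share of all genes passing the adjusted p was not computed for total-count scaling or for the second quantification. The counts of 21 and 11, and their directions, therefore do not set the factor genes apart from other genes. Eif4enif1 (log2 ratio -0.17, adjusted exact p = 0.102) and Eif4ebp1 (0.15, adjusted exact p = 0.229) did not pass in the second quantification. Eif4a1 did pass there (0.23, adjusted exact p = 5.76e-07). In the gene tables Eif4a1 had a log2 ratio of -0.07 (adjusted exact p = 0.445), so its direction depended on the quantification. No factor gene was called at over 2-fold under either scaling or in the second quantification. Slow fibre markers differed between the animals by a median log2 ratio of -0.82, and their part in the small differences above was not tested.

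**Figure D4:**
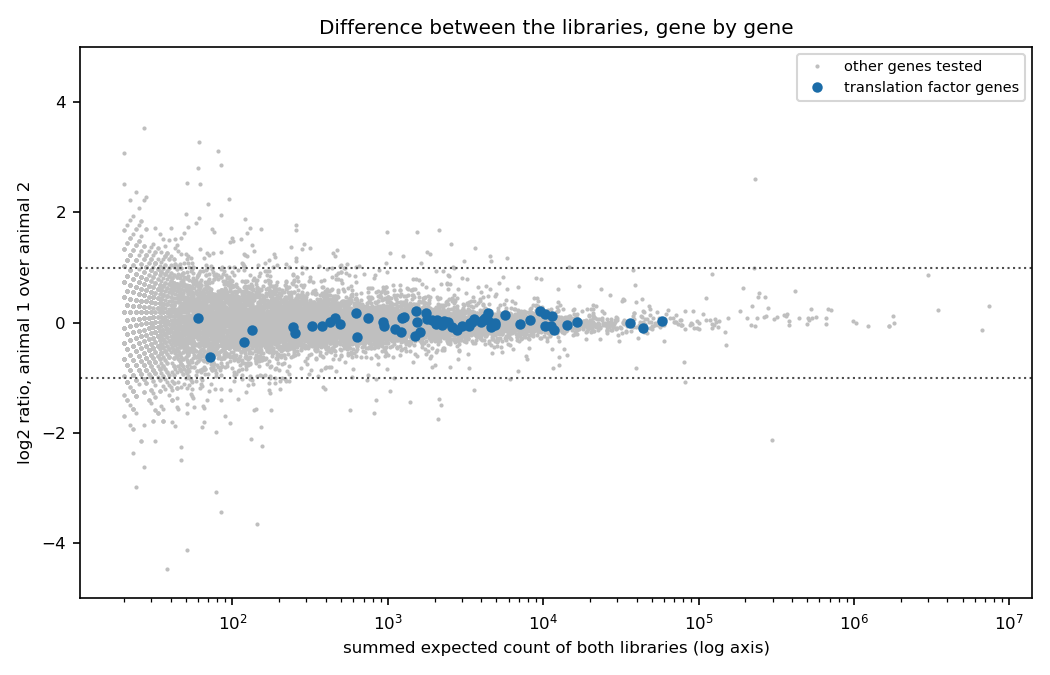
Log2 ratio of scaled expected counts, animal 1 over animal 2, against the summed expected count on a log axis, for 63 factor genes (blue) and all other genes tested (grey), with dotted lines at 2-fold; 36 genes lie outside the plotted range. All factor genes lie between the dotted lines, between -0.63 and 0.22.

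Partners of the factors were described from lists chosen by function. All 16 initiation partners were detected, with a median of 27.4 TPM in animal 1 and 25.6 TPM in animal 2. Pabpc4, a poly(A)-binding protein, was the highest, at 105 and 127 TPM, above Pabpc1, the widely expressed form, at 48.4 and 56.9 TPM. Mknk2, a kinase of eIF4E, had 84.7 TPM in animal 1 and 95.1 TPM in animal 2, against 7.63 and 8.67 TPM for Mknk1. Mcts2, a relative of the recycling factor Mcts1, was the lowest, at 3.84 and 4.51 TPM. Of the mTORC1 list, which holds the kinase Mtor with its partners and inhibitors, 10 of 10 genes were detected, with medians of 10.6 TPM in animal 1 and 11.4 TPM in animal 2. Akt1s1, an mTORC1 inhibitor, was the highest of these, at 40.8 and 44.0 TPM, and Mlst8, a subunit, the lowest, at 3.15 and 4.09 TPM. No gene of either list was called between the libraries at over 2-fold.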

How the data were processed

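Expected counts and TPM of the first quantification (1 gene and 1 transcript table per library) were computed by the authors, in columns that RSEM writes, per the file headers, which also give the percent of a gene's abundance on each transcript. Estimated counts and TPM of the second quantification were likewise computed by the authors, in columns that kallisto writes, per the file headers, and transcripts were summed to genes here. Bounds of a posterior TPM interval (a score in the deposited gene tables, level not stated) were copied but support no result. The accompanying deposited descriptions name mm10 and GENCODE M21. Not given in the sources used here are the aligner, versions and use of strand. Deposited TPM divides by the sum over every entry, so abundant short RNAs lower other values, and genes with near-identical copies are uncertain.

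Levels are deposited TPM, with mean ± SD over the 2 libraries. Pair ratios are log2(TPM + 0.1). Libraries were compared on rounded expected counts scaled by TMM (edgeR 4.0.16, R 4.3.3) with an exact conditional binomial test (two-sided, scipy 1.17.1) over genes whose counts summed to at least 20, Benjamini-Hochberg adjustment, and a prior count of 0.5 in the ratio. The test was checked on simulated data before use. Quasi-likelihood tests need replicates on each side and were not run. Intervals cover counting error only. The p-values carry sampling error alone, with no spread between animals.

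Every factor gene could be named, with values for the highest and lowest of each role, all pairs and all genes over 2-fold apart between quantifications. Members and lists were chosen with earlier results of these data known. Start contexts came from the main coding transcript of each gene, and promoters from RefSeq. The levels of 1 of the cell type marker lists are not reported here.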

Additional observations from a re-analysis of the deposited data

How the results depend on the processing

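No paired analysis was possible because the series has 1 group. The number of detected genes was 62 in the second quantification, with posterior mean TPM and with either library alone, and 52 at a TPM of 5 or more. The share of nuclear protein-coding TPM was 0.707% in the second quantification and 0.291% with all entries as the denominator, and 0.717% to 0.747% with a library left out. The median TPM of 21.1 became 35.3 in the second quantification, 53.1 after rescaling to nuclear protein-coding genes and 23.5 over detected genes, and was 21 to 21.2 with a library left out. No factor gene was called at over 2-fold with total-count or spike-in scaling, without the count minimum or in the second quantification. Of all genes, 1.92%, 1.77%, 1.31% and 1.48% were called there. By the adjusted p alone 21, 11, 9 and 11 factor genes passed, and the share of all genes was not computed. At an unadjusted p under 0.05 there were 27, 18, 18 and 19 factor genes, beside 33.7%, 25.9%, 17.1% and 24.4% of all genes.

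The 9 pairs with the first gene higher were 9 under a pseudocount of 1, posterior mean TPM, the second quantification and either library alone. Single pair ratios moved by more than their SD in 15 of 24 recomputations, none with a change of sign in the mean, although Eif4ebp1 over Eif4ebp2 changed sign in animal 1 in the second quantification. Main transcripts were shared in 33 of 47 genes at 10 TPM or more. With either library left out, the quantifications shared them in 47 of the 62 genes at a mean TPM of 1 or more. A pyrimidine run at the start itself was found for 2 genes in place of 12. The cause of these shifts was not tested. With 2 animals, the spread is poorly estimated.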

Other observations

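Genes of neighbouring pathways, from lists chosen by function, were measured in the same libraries. Of the termination and recycling list, 4 of 5 genes were detected, with medians of 20.1 TPM in animal 1 and 20.9 TPM in animal 2. Etf1, the release factor that reads stop codons, had 26.6 and 29.5 TPM, and its partner Gspt1 had 20.9 TPM in both animals, whereas Gspt2 was listed at 0.14 and 0.09 TPM. Both enzymes that make hypusine on eIF5A were detected, Dohh at 15.9 TPM in animal 1 and 16.1 TPM in animal 2 and Dhps at 7.71 and 7.29 TPM. All 9 mitochondrial translation factors were detected, with Tufm, the mitochondrial tRNA carrier, the highest at 46.3 and 54.4 TPM.

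Of 10 integrated stress response genes, which act with or after phosphorylation of eIF2, 7 were detected. By the adjusted p alone 4 of the 10 differed between the libraries, 2 in each direction, beside 15.1% of all genes tested. Other lists held such genes too. Of 4 termination and recycling genes tested, 2 were higher in animal 2. Of 16 initiation partners, 2 passed in each direction, and of 10 mTORC1 genes 1 passed in each direction. Of 9 mitochondrial factors, 1 was higher in animal 2. Atf4, the transcription factor at its centre, had 42.3 TPM in animal 1 and 44.7 TPM in animal 2. Chac1, a glutathione-degrading enzyme induced through Atf4, had 17.8 and 27.2 TPM, a log2 ratio of -0.50 (adjusted exact p = 2.86e-13), and Ddit3 had 3.89 and 6.01 TPM, a log2 ratio of -0.57 (adjusted exact p = 0.0273). Ppp1r15a, which directs removal of the phosphate from eIF2, had 8.13 TPM in animal 1 and 7.52 TPM in animal 2, with a log2 ratio of scaled counts of 0.42 (adjusted exact p = 7.78e-04). Impact, an inhibitor of the kinase GCN2, had 5.76 and 4.49 TPM, with a log2 ratio of 0.36 (adjusted exact p = 0.0174). Asns and Trib3, further Atf4 targets, had log2 ratios of 0.32 (adjusted exact p = 0.612) and 0.67 (adjusted exact p = 0.546). These differences are between 2 libraries and are under 2-fold.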
